A study of Caenorhabditis elegans with 12 samples.

Results

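The 10 genes described here are larval timing genes, called heterochronic genes, of the lin-14, lin-28, hbl-1 and lin-29 pathway of the nematode Caenorhabditis elegans. They were chosen by gene name, and each has a row in both deposited count tables, 10 of 46722 gene rows in all. Ribosome footprints, the short mRNA fragments that translating ribosomes protect, were counted in whole mid-L4 larvae grown for 45 h at 20 °C after feeding. There were 4 strains with 3 replicates each, and every sample was a synchronized population of animals. The U13A mutant carried let-7(ma432) with lin-41(tn1541ma480), and by its label downstream effects of lin-41 were meant to be left out. Its control carried lin-41(tn1541). The U18A mutant carried let-7(ma435) with the transgene maIs105, and its control carried maIs105 alone. As general background, tn1541 adds a fluorescent tag to lin-41 and maIs105 is a col-19 reporter transgene. Both strains of the U13A pair thus carry a lin-41 allele that the U18A pair lacks, and both strains of the U18A pair carry a transgene that the U13A pair lacks. Within the U13A pair lin-41 itself differs by ma480, so let-7 and lin-41 cannot be told apart there.

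Heterochronic genes set which stage-specific program the epidermal seam cells and other tissues of the larva follow. As textbook background, LIN-14, LIN-28 and HBL-1 hold back later programs and are repressed in turn by the microRNAs lin-4 and let-7 and by relatives of let-7. At the end of larval life let-7 represses lin-41, an RNA-binding protein gene, and this releases LIN-29 and its cofactor MAB-10, which drive the switch to the adult. The series concerns base pairing of let-7 outside its seed, and the mutants are named after positions of the microRNA.

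Total counts per library ranged from 8405704 to 44950649, and each library of the U13A mutant was deeper, and each of the U18A mutant shallower, than every library of its control. The let-7 row held 0 counts in all 12 libraries, which allows up to 0.357 counts per 1000000 counts (CPM) in the shallowest one. A microRNA is not translated, so this row does not check the alleles. Markers of the germline, oocytes, neurons, epidermis, seam, intestine, muscle, and male tail and sperm were checked against the label of whole animals. None stood at 0 in all 3 libraries of a strain. A single count is enough for this, so it cannot show that each tissue was present. In the U13A pair 4 of 8 seam markers and 5 of 7 male tail and sperm markers had enough counts for a test. In bulk larvae, fewer cells of a type and less RNA per cell cannot be told apart, and a footprint level joins how much mRNA there is with how heavily it is translated.

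The 10 genes were translated at very different levels. Levels below are CPM scaled by TMM over the 12 libraries, and between genes they were compared per kilobase of the longest annotated coding sequence. Annotated coding lengths run from 294 to 1962 bp for lin-42, 633 to 1881 bp for lin-66 and 891 to 1491 bp for kin-20. The lengths also run from 951 to 1377 bp for lin-29, 471 to 870 bp for mab-3 and 588 to 681 bp for lin-28. Which transcripts were read is not known, so the order of these genes depends on the choice of length. By this measure kin-20 stood highest in the U18A control, at 31.8 ± 0.789 CPM per kb (SD, n = 3). There lin-66 averaged 18.7 ± 1.86, lin-28 12.1 ± 1.02 and lin-42 11.5 ± 1.34 CPM per kb (SD, n = 3 each). lin-14 followed at 7.92 ± 1.11 and lin-29 at 5.48 ± 1.01 CPM per kb (SD, n = 3 each). mab-10 averaged 2.43 ± 0.184 and mab-3 2.08 ± 0.295 CPM per kb (SD, n = 3 each). The lowest were hbl-1 at 0.573 ± 0.147 and lin-46 at 0.452 ± 0.0557 CPM per kb (SD, n = 3 each). hbl-1, lin-46, mab-3 and mab-10 therefore rest on few reads, with 4 to 67 counts per library for hbl-1, 4 to 27 for lin-46, 3 to 71 for mab-3 and 9 to 183 for mab-10.

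**Figure D1:**
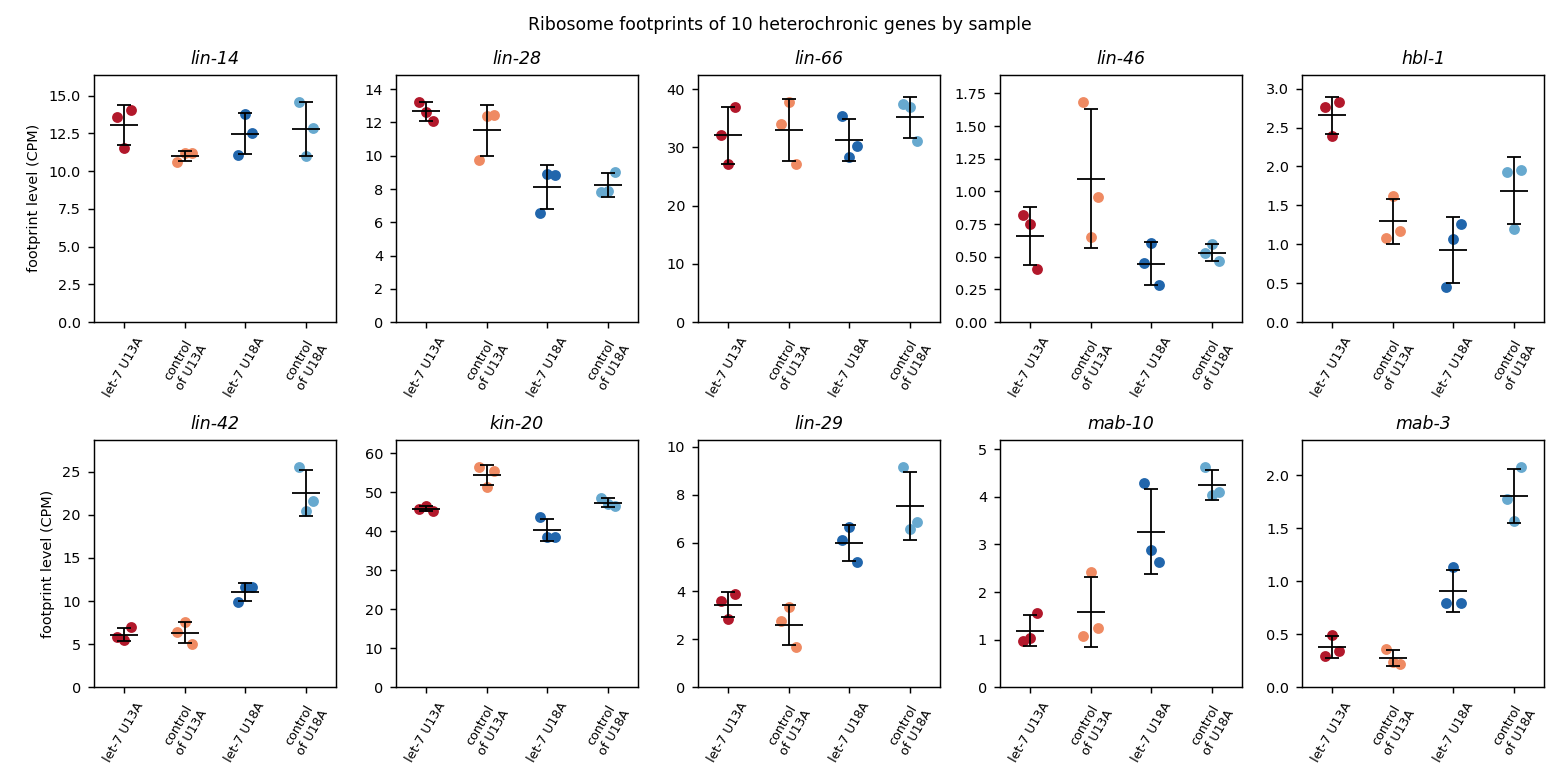
Footprint level in CPM (vertical axes, linear from 0) of the 10 genes in each of the 12 samples, with points for samples and bars for the mean and SD of 3. lin-42, lin-29, mab-10 and mab-3 stand lower in both strains of the U13A pair than in the U18A control, and hbl-1 is highest in the U13A mutant.

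Each mutant was compared with its control over all genes, and 1 gene of the timing set changed in the U13A pair and 2 changed in the U18A pair. hbl-1 was the member that rose in the U13A mutant. lin-42 and mab-3 fell in the U18A mutant. Calls are Benjamini-Hochberg adjusted p-values under 0.05 in edgeR's quasi-likelihood test. In the U13A pair 1 of 9 tested members rose and 0 fell, against 3.07% higher and 2.57% lower of all 12874 genes, while mab-3 had too few counts for a test. In the U18A pair 0 of 10 rose and 2 fell, against 4.11% higher and 6.75% lower of 13614 genes. These shares of so few members do not set the group apart from the background. All 10 members had a fitted log2 change below 0 in the U18A pair, as did 50.9% of all genes. The median of the members was -0.32, against -0.005 over all genes. Not every sign was firm, as lin-28 at -0.01 and lin-14 at -0.02 were near 0. Their sign changed in 4 and 3 of 14 alternatives, that of mab-10 in 1 of 14 and that of lin-46 in 1 of 11. The U13A pair gave 4 positive and 5 negative fitted changes and a median of -0.05, against -0.004 over all genes. When the changes of the 2 pairs were set against each other in 1 model over 12 libraries, those of hbl-1 and lin-42 differed, both with a higher change in the U13A pair. This was 2 of 10 members in that direction and 0 in the other, against 4.05% and 1.53% of 13597 genes.

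**Figure D2:**
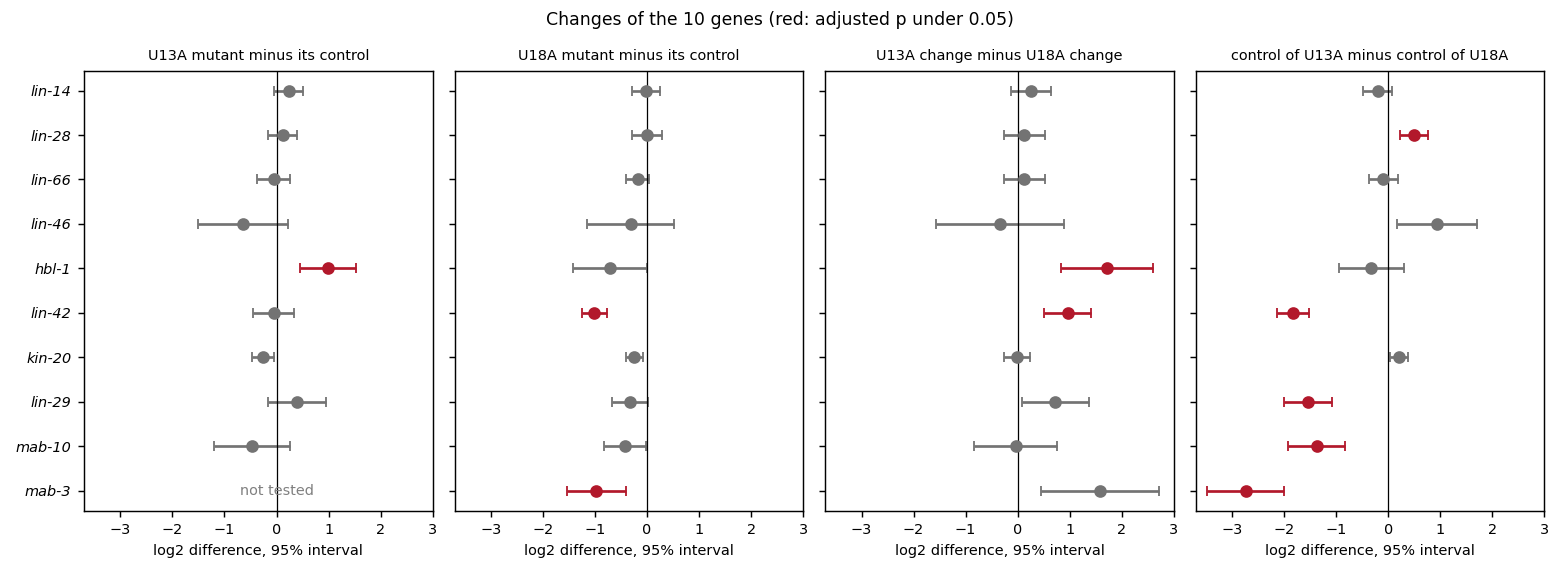
Log2 difference with its 95% interval (horizontal axes) of each gene in 4 comparisons, the U13A mutant minus its control, the U18A mutant minus its control, the first change minus the second, and the U13A control minus the U18A control. Red points have an adjusted p under 0.05. lin-42 is at -1.01 in the U18A pair and hbl-1 at 1.00 in the U13A pair, while 5 genes differ between the control strains.

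The genes of the earliest larval fates come first. lin-14 encodes a nuclear regulator of first-stage fates and maps to X:11465560-11485871, plus strand, in build WBcel235, which gives all positions here. It stood at 13.6, 11.5 and 14.02 CPM in the U13A mutant, against 10.6, 11.2 and 11.2 CPM in its control. The groups did not overlap, the mutant being higher, but the log2 change of 0.23 (95% interval -0.05 to 0.51) did not pass (edgeR adjusted p 0.393). The U18A mutant stood at 11.1, 13.8 and 12.5 CPM, against 14.6, 10.98 and 12.8 CPM in the U18A control. These libraries overlapped and the log2 change was -0.02 (95% interval -0.29 to 0.25). All neighbouring strains overlapped in the order of its level.

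lin-28 encodes an RNA-binding protein of second-stage fates that blocks the maturation of let-7. It maps to I:8407630-8410804, minus strand. It was read at 13.2, 12.6 and 12.1 CPM in the U13A mutant, against 9.75, 12.4 and 12.4 CPM in its control. The U18A mutant was read at 6.56, 8.88 and 8.86 CPM, against 7.80, 7.90 and 9.05 CPM in the U18A control. Libraries of mutant and control overlapped in both pairs. The log2 changes were 0.12 (95% interval -0.17 to 0.40) and -0.01 (95% interval -0.30 to 0.28). Each library of the U13A pair was above each of the U18A pair. The difference between the control strains is taken up below.

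lin-66, a gene known to repress lin-28, was not called in either pair. It maps to IV:13888079-13893986, plus strand. Its means were 32.0 ± 4.91 CPM in the U13A mutant and 33.0 ± 5.36 CPM in its control, and 31.3 ± 3.58 CPM in the U18A mutant and 35.2 ± 3.50 CPM in the U18A control (SD, n = 3 each). The log2 changes of -0.05 (95% interval -0.37 to 0.26) and -0.18 (95% interval -0.40 to 0.04) did not pass the test. Neighbouring strains in the order of its level overlapped in every case.

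lin-46 encodes a gephyrin-like scaffold protein that acts downstream of lin-28 and opposes HBL-1. It maps to V:12968855-12970730, plus strand. Its counts were 11, 21 and 7 in the U13A mutant, against 14, 8 and 13 in its control. They were 4, 8 and 5 in the U18A mutant, against 11, 27 and 15 in the deeper libraries of the U18A control. The ratios of summed counts, scaled for depth, were 0.649 in the U13A pair (exact 95% interval of counting error 0.401 to 1.06) and 0.799 in the U18A pair (0.434 to 1.40). Neither change passed the test (edgeR adjusted p 0.449 and 0.715).

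hbl-1 encodes a hunchback-like zinc-finger factor that keeps third-stage fates from appearing early, and it is a known target of let-7 and its relatives. It maps to X:5822142-5827755, plus strand. In the U13A mutant it had 37, 67 and 49 counts, or 2.77, 2.39 and 2.83 CPM, against 9, 20 and 16 counts, or 1.08, 1.62 and 1.18 CPM, in its control. The groups did not overlap, and the log2 change was 1.00 (SE 0.25, 95% interval 0.46 to 1.54, edgeR adjusted p 0.0332). In the U18A mutant it had 4, 14 and 22 counts, or 0.453, 1.06 and 1.26 CPM, against 40, 54 and 63 counts, or 1.92, 1.19 and 1.95 CPM, in the U18A control. There the groups overlapped and the log2 change of -0.71 did not pass (SE 0.33, 95% interval -1.42 to -0.01, edgeR adjusted p 0.212).

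The change of hbl-1 in the U13A pair minus that in the U18A pair was 1.72 (SE 0.42, 95% interval 0.83 to 2.60, edgeR adjusted p 0.0191). Its call within the U13A pair was lost whichever of the 6 libraries was omitted (adjusted p 0.0534 to 0.117) and with DESeq2 (adjusted p 0.0693), with log2 changes from 0.91 to 1.20 in those 6 fits. After thinning to equal depth in 1 random draw the change in the U13A pair was 0.19 (adjusted p 0.889). The difference between pairs was lost without control_for_U13A replicate C (adjusted p 0.0531) and after thinning, where it was 1.76 on the log2 scale with an SE of 0.99 (adjusted p 0.494). The ratio of summed counts scaled for depth was 1.98 in the U13A pair (exact 95% interval of counting error 1.41 to 2.83) and 0.635 in the U18A pair (0.437 to 0.903). Both intervals cover counting error only.

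lin-42 and kin-20 are the worm relatives of clock genes. lin-42 encodes a relative of PERIOD, is known to rise and fall once in each molting cycle, and holds down the transcription of heterochronic microRNAs. It maps to II:1233236-1252359, minus strand. In the U18A mutant it stood at 9.85, 11.7 and 11.7 CPM, against 25.5, 20.5 and 21.6 CPM in the U18A control. Every mutant library was far below every control library, and the log2 change was -1.01 (SE 0.12, 95% interval -1.26 to -0.76, edgeR adjusted p 8.70e-05). This call held in all 14 alternatives, with log2 changes from -1.08 to -0.92. In the U13A mutant lin-42 stood at 5.83, 5.52 and 7.04 CPM, against 6.38, 7.54 and 5.08 CPM in its control. These libraries overlapped, and the log2 change of -0.05 had a 95% interval of -0.45 to 0.34. The changes differed between the pairs by 0.96 (SE 0.21, 95% interval 0.51 to 1.41, edgeR adjusted p 0.0102), a call lost in 1 of 18 alternatives, the thinned counts, where the difference was 0.83 (adjusted p 0.173).

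The molting list fell beside lin-42 in the U18A pair. This list holds 10 genes of the molt, among them mlt-10, noah-1 and fbn-1. In the U18A mutant 9 of the 10 fell and 0 rose, against 6.75% lower and 4.11% higher of all genes. The median log2 change was -1.03, with a range of -1.36 to -0.06. The list summed to 532 to 548 CPM in the U18A mutant, against 990 to 1455 CPM in the U18A control. Of 8 epidermal markers 6 fell there, against the same 6.75%, with a median of -1.08 and a range of -1.3 to 0.04. They include the cuticle collagen genes dpy-7, rol-6, dpy-10, bli-1 and sqt-3. The list thus does not measure how much epidermis was present. These 8 markers summed to 381 to 471 CPM in the mutant, against 749 to 964 CPM in the control. Whether these shifts play a part in the fall of lin-42 was not tested. In the U13A pair, where lin-42 did not pass the test, 2 of the 10 molting genes rose (noah-1 and fbn-1) and 0 fell. Of all genes 3.07% rose and 2.57% fell there. The median log2 change of the molting list was 0.41. Of the 8 epidermal markers 2 rose in this pair and 0 fell. The epidermal list summed to 192 to 343 CPM in the U13A mutant, against 173 to 257 CPM in its control.

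Over the 12 libraries the gene whose log2 CPM was most like that of lin-42 was mlt-10, a gene of the molt, with a Pearson r of 0.991 among 9284 candidates. Samples of 1 strain lie close together in this relation, and after the strain means were subtracted r was 0.784. For every 100 footprints on mlt-10 there were 9.57 to 10.1 on lin-42 in the U13A mutant and 9.29 to 11.6 in its control, 8.45 to 10.6 in the U18A mutant and 9.40 to 10.2 in the U18A control. The ratio averaged 9.95 ± 0.766 (SD, n = 12), although lin-42 itself spanned 5.08 to 25.5 CPM. This ratio was computed after the likeness had been seen and is given as a description.

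**Figure D3:**
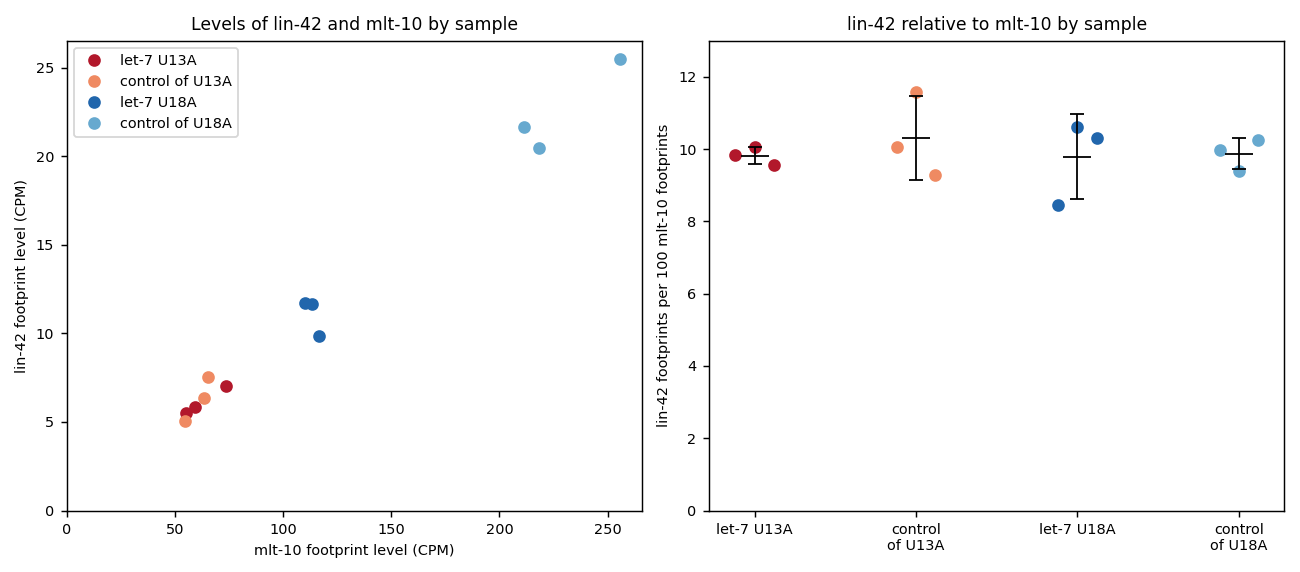
Left, the footprint level of lin-42 against that of mlt-10 in CPM for the 12 samples, coloured by strain. Right, lin-42 footprints per 100 mlt-10 footprints in each sample with the mean and SD of 3, which lie between 8.45 and 11.6 in all 12 samples.

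kin-20 encodes a casein kinase related to Doubletime. It maps to X:15268602-15277764, minus strand. It stood at 45.7, 46.5 and 45.4 CPM in the U13A mutant, against 56.4, 51.5 and 55.6 CPM in its control. The U18A mutant stood at 43.7, 38.6 and 38.7 CPM, against 48.7, 46.9 and 46.5 CPM in the U18A control. In both pairs all 3 mutant libraries lay below the control libraries, yet neither change passed the test over all genes. The log2 changes were -0.26 in the U13A pair (95% interval -0.47 to -0.04, edgeR adjusted p 0.176) and -0.24 in the U18A pair (95% interval -0.41 to -0.07, edgeR adjusted p 0.0669). The difference between them was -0.01 with a 95% interval of -0.25 to 0.23. Without let7_U18A replicate A the U18A change passed (adjusted p 0.0397).

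lin-29, mab-10 and mab-3 act at the end of the pathway, and LIN-41 is known to repress all 3. lin-29 encodes the zinc-finger factor of the larva-to-adult switch and maps to II:11917642-11935343, minus strand. It stood at 3.59, 2.85 and 3.87 CPM in the U13A mutant, against 2.77, 3.32 and 1.69 CPM in its control. Libraries of the U18A mutant stood at 6.11, 6.68 and 5.20 CPM, against 9.14, 6.59 and 6.88 CPM in the U18A control. Libraries overlapped in both pairs. The log2 changes were 0.40 (95% interval -0.16 to 0.95, edgeR adjusted p 0.474) and -0.33 (95% interval -0.67 to 0.02, edgeR adjusted p 0.247), and their difference of 0.72 did not pass (edgeR adjusted p 0.223).

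mab-10 encodes the NAB-type cofactor of LIN-29 and maps to II:10528084-10534380, plus strand. It stood at 0.972, 1.03 and 1.56 CPM in the U13A mutant, against 1.08, 2.43 and 1.25 CPM in its control. In the U18A mutant it stood at 4.301, 2.89 and 2.63 CPM, against 4.62, 4.04 and 4.09 CPM in the U18A control. The groups overlapped in both pairs, with log2 changes of -0.46 (95% interval -1.19 to 0.27) and -0.43 (95% interval -0.83 to -0.03) that did not pass (edgeR adjusted p 0.541 and 0.182). Without control_for_U13A replicate B the value in the U13A pair was -0.004.

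mab-3 encodes a DM-domain factor known for its role in males, and maps to II:9732137-9738035, plus strand. In the U18A mutant it had 7, 15 and 14 counts, or 0.792, 1.14 and 0.801 CPM, against 37, 71 and 67 counts, or 1.78, 1.57 and 2.08 CPM, in the U18A control. The groups did not overlap, and the log2 change was -0.98 (SE 0.26, 95% interval -1.54 to -0.41, edgeR adjusted p 0.0272). That call held in 7 of 13 alternatives, and 4 of its losses came on omitting 1 library (adjusted p 0.0541 to 0.120). In the U13A mutant it had 4, 14 and 6 counts, against 3 in each library of its control. The ratio of these summed counts scaled for depth was 1.55, and its exact 95% interval of 0.697 to 3.80 covers counting error only. Of 7 male tail and sperm markers 5 were tested and 0 were called in either pair, with 4 of the 5 fitted changes below 0 in each. Of the other marker lists, germline (10 tested), neuron (8) and muscle (5) gave 0 calls in either pair. Intestine (6) gave 0 calls in the U13A pair and 1 higher in the U18A pair. Seam gave 1 higher of 4 in the U13A pair and 1 lower of 5 in the U18A pair. Over all genes 3.07% were higher and 2.57% lower in the U13A pair, and 4.11% and 6.75% in the U18A pair. A count of 1 in so short a list does not set it apart from these shares.

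More members differed between the 2 control strains, neither of which carries a let-7 mutation, than in either pair. The U13A control had lower levels of lin-42, lin-29, mab-10 and mab-3 than the U18A control, and a higher level of lin-28. Of the 10 members 1 was higher and 4 were lower, against 11.6% higher and 13.4% lower of all 13597 genes. Each control also serves in its own pair, so these values and those of the pairs share samples. The strains differ in the lin-41 allele, the transgene, the background and the count table, and these cannot be told apart.

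mab-3 averaged 0.275 ± 0.0754 CPM in the U13A control and 1.81 ± 0.256 CPM in the U18A control (SD, n = 3 each), a log2 difference of -2.74 (SE 0.35, edgeR adjusted p 1.87e-05). lin-42 averaged 6.33 ± 1.23 CPM in the U13A control and 22.5 ± 2.63 CPM in the U18A control (log2 difference -1.83, SE 0.15, edgeR adjusted p 1.02e-07). lin-29 averaged 2.59 ± 0.830 CPM in the U13A control and 7.54 ± 1.40 CPM in the U18A control (log2 difference -1.54, SE 0.22, edgeR adjusted p 5.75e-05). mab-10 averaged 1.59 ± 0.735 CPM in the U13A control and 4.25 ± 0.322 CPM in the U18A control (log2 difference -1.37, SE 0.26, edgeR adjusted p 9.07e-04). For each of these 4 genes the libraries of the control strains did not overlap, and the calls of lin-42, lin-29 and mab-10 held in every alternative that tested them. The call of mab-3 held in 16 of 17, the exception being thinning to equal depth in 1 random draw (adjusted p 0.118).

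lin-28 ran the other way, at 11.5 ± 1.54 CPM in the U13A control and 8.25 ± 0.698 CPM in the U18A control (SD, n = 3 each). The log2 difference was 0.49 (SE 0.13, edgeR adjusted p 0.0105), lost without control_for_U13A replicate B (adjusted p 0.0525) or C (adjusted p 0.0543) and after thinning to equal depth (adjusted p 0.320). lin-46 had the same sign at 0.94 (95% interval 0.17 to 1.71, edgeR adjusted p 0.0689) and did not pass. kin-20 at 0.20, hbl-1 at -0.32, lin-14 at -0.21 and lin-66 at -0.09 did not pass.

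Other markers differed between the control strains beside these genes. Of the 10 molting genes 9 were lower in the U13A control, with a median log2 difference of -1.89. Of 8 epidermal markers, with the collagen genes among them, 7 were lower, with a median of -1.66. Of all genes 13.4% were lower and 11.6% higher in that control. The molting list summed to 246 to 319 CPM in the U13A control, against 990 to 1455 CPM in the U18A control. Of 8 oocyte markers 7 were lower, with a median of -1.44, and of 10 germline markers 5 were higher, with a median of 0.25. The part of these shifts in the differences of lin-42, lin-29, mab-10, mab-3 and lin-28 was not tested.

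Each gene's order of levels over the 4 strains can be read with these spreads. lin-42 fell into 3 steps that did not overlap, the U18A control, the U18A mutant and then both strains of the U13A pair, which overlapped. mab-3 had the same 3 steps. kin-20 stood highest in the U13A control and lowest in the U18A mutant, both apart from their neighbours. For lin-29 the strains of the U18A pair overlapped each other, those of the U13A pair overlapped each other, and the pairs stood apart. mab-10 showed the same split, with the U18A mutant at 3.27 ± 0.900 CPM above the U13A control at 1.59 ± 0.735 CPM (SD, n = 3 each). hbl-1 stood apart in the U13A mutant, and the other 3 strains overlapped from 1 to the next. lin-14, lin-66 and lin-46 had no neighbours that stood apart.

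3 members share exonic bases with a protein-coding gene on the other strand, and the sources used here do not say if counts were taken by strand. R166.2 shares 49 bases with mab-10, F02E9.1 shares 16 with lin-28 and hmg-12 shares 2 with lin-29. Between the control strains the log2 differences of these partners were -0.14 for R166.2, 0.01 for F02E9.1 and -0.07 for hmg-12, with edgeR adjusted p-values of 0.338, 0.939 and 0.648. None of these protein-coding partners passed the test in either pair. On its own strand lin-14 shares 108 exonic bases with the snoRNA gene T25C12.11 and 99 with T25C12.12. On its own strand lin-66 shares 21 with each of the piRNA genes 21ur-10065, 21ur-10153 and 21ur-14580. Counting by strand would not separate these small RNA genes from the members, and their levels were not examined.

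Other genes of the timing pathway were taken from a list of 20, of which 18 were tested. dmd-3, the other male factor known to be repressed by LIN-41, had at most 5 counts in a library and was not tested, and myrf-1 was not matched to a row. In the U13A pair 1 of 18 rose and 0 fell, against 3.07% and 2.57% of all genes, and the median log2 change was 0.04, against -0.004 over all genes. This was daf-12, the nuclear hormone receptor that controls transcription of let-7 relatives, which rose by 1.51 (SE 0.16, edgeR adjusted p 1.21e-04). blmp-1, a zinc-finger factor of seam-cell timing, was at 0.37 (adjusted p 0.117) there and did not pass. lin-41 was at 0.29 (adjusted p 0.165).

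In the U18A pair 2 of the 18 rose and 4 fell, against 4.11% and 6.75% of all genes, and the median was -0.16, against -0.005 over all genes. blmp-1 fell to 10.9, 9.04 and 11.3 CPM in the U18A mutant, against 18.4, 15.6 and 18.5 CPM in the U18A control (log2 change -0.75, SE 0.12, edgeR adjusted p 7.49e-04). nhr-25, a nuclear receptor of epidermal development, fell by 1.10 on the log2 scale (SE 0.27, edgeR adjusted p 0.0149). dre-1, the F-box gene that targets BLMP-1 for degradation, changed by -0.36 (adjusted p 0.00837), and alg-1, an Argonaute of the microRNA pathway, by -0.34 (adjusted p 0.0154). lin-41 rose by 0.54 (adjusted p 7.70e-04) and pup-2, a poly(U) polymerase, by 0.43 (adjusted p 0.0127). The call of nhr-25 was lost without let7_U18A replicate A (adjusted p 0.0599) or C (adjusted p 0.0672), and that of alg-1 without control_for_U18A replicate A (adjusted p 0.0571) or let7_U18A replicate B (adjusted p 0.111) or C (adjusted p 0.0558). After thinning to equal depth 2 of these 18 genes were called. The thinned log2 changes of the 4 that lost the call were -0.31 for dre-1, -1.07 for nhr-25, -0.33 for alg-1 and 0.42 for pup-2.

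The changes of daf-12, blmp-1 and dre-1 differed between the pairs, by 1.78, 1.12 and 0.43 on the log2 scale (edgeR adjusted p 1.23e-04, 4.26e-04 and 0.0496). The call of dre-1 was lost whichever of the 12 libraries was omitted (adjusted p 0.0523 to 0.129). That of blmp-1 was lost after thinning, where the difference was 0.98 (adjusted p 0.0587). Between the control strains 7 of the 18 were lower in the U13A control and 0 higher, against 13.4% and 11.6% of all genes. They were lin-41 (-0.99, altered there by tn1541), alg-1 (-0.64), blmp-1 (-0.63), daf-12 (-0.54), alg-2 (-0.52), dre-1 (-0.47) and pup-2 (-0.42), all as log2 differences. That of daf-12 was lost without control_for_U13A replicate B (adjusted p 0.0881) or C (adjusted p 0.0788) or control_for_U18A replicate A (adjusted p 0.102), and that of pup-2 after thinning, where it was -0.24 (adjusted p 0.316). The oocyte markers moved in both pairs beside these genes. In each mutant 7 of the 8 were higher, against 3.07% (U13A) and 4.11% (U18A) of all genes. The 8 markers summed to 178 to 229 CPM in the U13A mutant, against 90.7 to 121 CPM in its control. In the U18A mutant they summed to 501 to 578 CPM, against 220 to 318 CPM in the U18A control. Their part in the changes of lin-41 and of the timing genes was not tested.

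**Figure D4:**
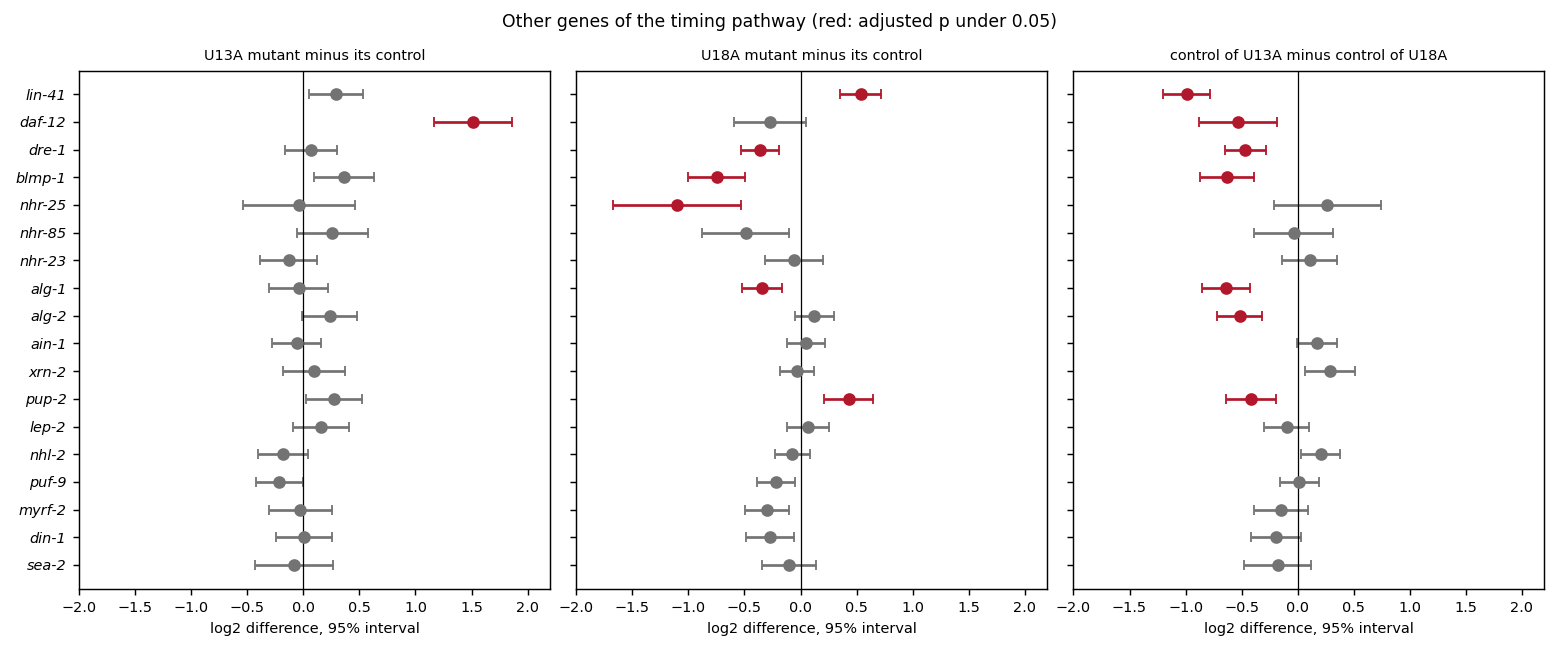
Log2 difference with its 95% interval (horizontal axes) of 18 further timing genes in the U13A mutant minus its control, the U18A mutant minus its control, and the U13A control minus the U18A control. Red points have an adjusted p under 0.05. daf-12 is the 1 red gene in the first comparison, at 1.51, and the 7 red genes in the last all lie below 0.

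The genes most like the other members in log2 CPM over the 12 libraries are given with Pearson's r, as a description in which strain differences play a large part. They were T16G12.1 for lin-14 (0.849), gba-4 for lin-28 (0.970), ZC443.4 for lin-46 (0.957) and ebp-1 for hbl-1 (0.924). They were ftt-2 for lin-66 (0.922), M05D6.3 for kin-20 (0.943) and vps-29 for lin-29 (0.967). For mab-10 it was M28.8 (0.964) and for mab-3 F30A10.2 (0.962). Candidates were the 9284 or 9285 other genes above the level limit, and hbl-1, lin-46 and mab-3 rest on few counts.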

How the data were processed

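The authors deposited 2 tables of raw footprint counts per gene, 1 for each mutant with its own control, per the file headers. The submitters' processing notes name cutadapt 1.9, Bowtie2 2.3.4.3 and the build WBcel235, with no roles; the counting tool, annotation, use of strand and handling of multi-mapping reads are not given in the sources used here. Positions and coding lengths come from Ensembl release 115 on WBcel235. lep-2 and myrf-2 were found under their locus names through the RefSeq gene table.

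All genes were fitted in edgeR 4.0.16 (R 4.3.3) with filterByExpr, TMM scaling and a robust quasi-likelihood test. Each mutant was fitted with its control, and the difference of the changes and the control strains were fitted over all 12 libraries. Standard errors and 95% intervals were derived from the F statistic. With 3 libraries against 3 an exact permutation test cannot go below 0.10, so none was run. The labels do not say that replicates came from separate cultures, so p-values measure the spread between these samples.

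The members and lists were chosen with earlier results of these data known. Named genes are the members, lin-41, let-7, called genes of the pathway list and genes that share exonic bases with a member. Some genes of the molting and epidermal lists are named as well. The most like gene with a mean of at least 5 CPM is named too (log2 CPM with a prior count of 2). The fits were tested on simulated counts with changes of 1 on the log2 scale, planted in 200 genes in a single draw per comparison. These genes were drawn at random from all genes tested. Recovery was thus not measured for genes with few counts alone, such as hbl-1, lin-46 and mab-3. In the U13A pair 83.9% of the changed genes were recovered and 7.73% of calls were false. These shares were 88.9% and 6.84% in the U18A pair, and 76.4% and 6.17% for the difference of the changes. For the control strains they were 81.8% and 6.36%. Each share of false calls was above the level the call threshold aims at, so calls close to the threshold are less certain. Alternatives were DESeq2 1.42.0, no count filter, a floor of 10 counts per sample, median-of-ratios scaling, a replicate block, thinning to equal depth in 1 random draw, all 12 libraries in a fit, no robust estimation and leaving out each replicate. The replicate letters were not taken as pairs. In the U13A pair the correlation of deviations ran from -0.292 to 0.00752 between samples of the same letter. Between different letters it ran from -0.306 to 0.325 there. In the U18A pair it ran from 0.00560 to 0.146 for the same letter and from -0.144 to 0.0237 for different letters. Pairing is thus not excluded in the U18A pair, and the replicate block is the alternative that allows for it.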

Additional observations from a re-analysis of the deposited data

Results flagged for a closer look

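The changes of 2 members differed between the U13A and the U18A pair in the model over 12 libraries. For lin-42 the difference was 0.96 on the log2 scale, and for hbl-1 it was 1.72. Allele, strain and count table all separate the pairs and cannot be told apart.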

How the results depend on the processing

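Of 608 values of single members under alternatives, 583 kept their call and direction or stayed uncalled, 22 lost the call and 3 gained it. These values include members that were not called at first, so the shares do not measure how firm the calls are. The call of hbl-1 in the U13A pair held in 4 of 13 alternatives, and that of mab-3 in the U18A pair in 7 of 13. The number of members called in the U13A pair, 1, became 0 with DESeq2, with the replicate block and after thinning to equal depth, and was 0 in each fit that left out a library. The number in the U18A pair, 2, became 1 with DESeq2 and after thinning, was 3 with the replicate block, and ran from 1 to 2 when a library was left out. lin-42 was called in all of these. For the difference of the changes the number, 2, became 0 after thinning, and ran from 1 to 2 without single libraries. For the control strains the number, 5, became 3 after thinning, and ran from 4 to 5 without single libraries. A filter of at least 10 counts in every sample removed hbl-1, mab-3 and other low members untested, and so gave 0 calls of 6 tested in the U13A pair, 1 of 7 in the U18A pair, 1 of 6 for the difference and 3 of 6 for the control strains. Within the replicate block, hbl-1 lost its call in the U13A pair (adjusted p 0.0800) and kin-20 gained one in the U18A pair (adjusted p 0.0407). In hbl-1 of the U13A pair thinning in 1 random draw moved the log2 change to 0.19 (adjusted p 0.889), and the cause was not tested. Depth limits mab-3 in the U13A pair, where it was at or under 3 counts in each control library, and lin-46 throughout.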
